A study of Equus caballus with 12 samples.

Results

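Oxidative phosphorylation subunit genes of the horse oocyte were followed across vitrification, 27 genes of the 11425 listed. They were every gene of the expression table whose Ensembl identifier the study's supplementary gene lists pair with a name that starts with NDUF, SDH, UQCR, COX or ATP5. By the complex in which their proteins work, 11 belonged to complex I, 2 to complex III, 7 to complex IV and 3 to ATP synthase (complex V), and the other 4 (SDHAF3, COX16, COX17 and COX7A2L) help to build complexes or to join them. Only 2569 of the 11425 identifiers had a name, so these are the nameable subunits and not the whole machinery: no structural subunit of complex II (succinate dehydrogenase) and none of the subunits encoded in mitochondrial DNA was among them. One of the sources of names was a set of fold-change lists of which the copies used here were shortened at one end. Of the 27 genes, 15 were named only there, so how many of them were higher or lower in a comparison depends in part on where those lists stop.

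The respiratory chain sits in the inner mitochondrial membrane. Complex I takes electrons from NADH and complex II from succinate, both pass them through ubiquinone to complex III, cytochrome c carries them to complex IV, where oxygen is reduced, and ATP synthase uses the proton gradient built on the way. The oocyte carries the mitochondria that the embryo starts with, and their ATP supports the spindle, meiotic maturation and early cleavage. Subunit messenger RNAs of a maturing oocyte come from a store made during growth, since transcription is largely silent by then.

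RNA was sequenced from 12 pools of mature horse (Equus caballus) oocytes, each with a visible polar body and with the cumulus cells removed, from ovaries collected at a slaughterhouse. Fresh control oocytes (FR, n = 5) were matured in vitro and never vitrified. VMAT oocytes (n = 3) were matured in vitro, vitrified, warmed and returned to culture for a short time, and VIM oocytes (n = 4, labelled VGV in the sample records) were vitrified while immature and inside their corona radiata cells, warmed and then matured in vitro. No animal was treated, the mares' ages and breeds are not given in the sources used here, and a pool mixes oocytes, so less RNA per oocyte and fewer oocytes with the RNA cannot be told apart. FR and VMAT oocytes were matured together and allotted to their group afterwards, while VIM oocytes were assigned to vitrification before maturation. Whether VIM pools shared maturation runs with them is not stated. Where the replicate pools came from is not stated further, so p-values measure the spread between these pools only.

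Levels are the deposited normalized counts, which are reads per gene divided by one size factor per library. Reads here and below are the whole counts recovered from these values. The authors made the counts after processing unique molecular identifiers, so they are not raw sequencing reads. Between 1636620 and 12166950 reads lay on genes in a library (median 2899468). VMAT replicate 1 was the shallowest and VMAT replicate 2 the deepest, and 1 read was worth 3.11 and 0.125 in the normalized counts of these 2 libraries. Of 20 oocyte markers 12 could be named. DPPA3, BTG4, GDF9, H1-8 and ZP4 had over 30 reads in all 12 libraries, KPNA7 in 11 and BMP15 in 10. ZP1, ZP2 and ZAR1 did so in 9 each, and FIGLA and TLE6 in 6 each. Of 22 cumulus and granulosa cell markers 1 could be named, the hyaluronan synthase gene HAS2. It was at normalized counts of 462 to 1240 in FR, 254 to 1760 in VMAT and 641 to 2140 in VIM, with over 30 reads in all 12 libraries (215 to 3602). Its part in the results below was not tested.

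The pools held the 27 genes unevenly, as they held most genes with over 30 reads in any library. Of their 324 values (27 genes in 12 libraries), 67 (20.7%) rested on 3 reads or fewer and 184 (56.8%) on more than 100 reads, with 57 (17.6%) between 4 and 30 reads and 16 (4.94%) between 31 and 100. Most values therefore rested either on more than 100 reads or on 3 reads or fewer. In 21 of the 27 genes (77.8%) at least 1 library had 3 reads or fewer while another had more than 30. This share was close to the 81.9% among the 9021 genes with over 30 reads in any library. Of the values of those 9021 genes, 51.2% rested on 3 reads or fewer and 32.7% on more than 100. The 27 genes had a median of 8 libraries over 30 reads, against 3 among those 9021 genes. NDUFB1 alone had over 30 reads in all 12 libraries, 3.7% of the 27 against 8.15% of the 9021, so this measure went the other way. More than 3 reads in each library were found for 6 of the 27 and for 1629 of the 9021. The 27 could be named only through the study's gene lists, and the part of that choice in these differences was not tested.

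**Figure D1:**
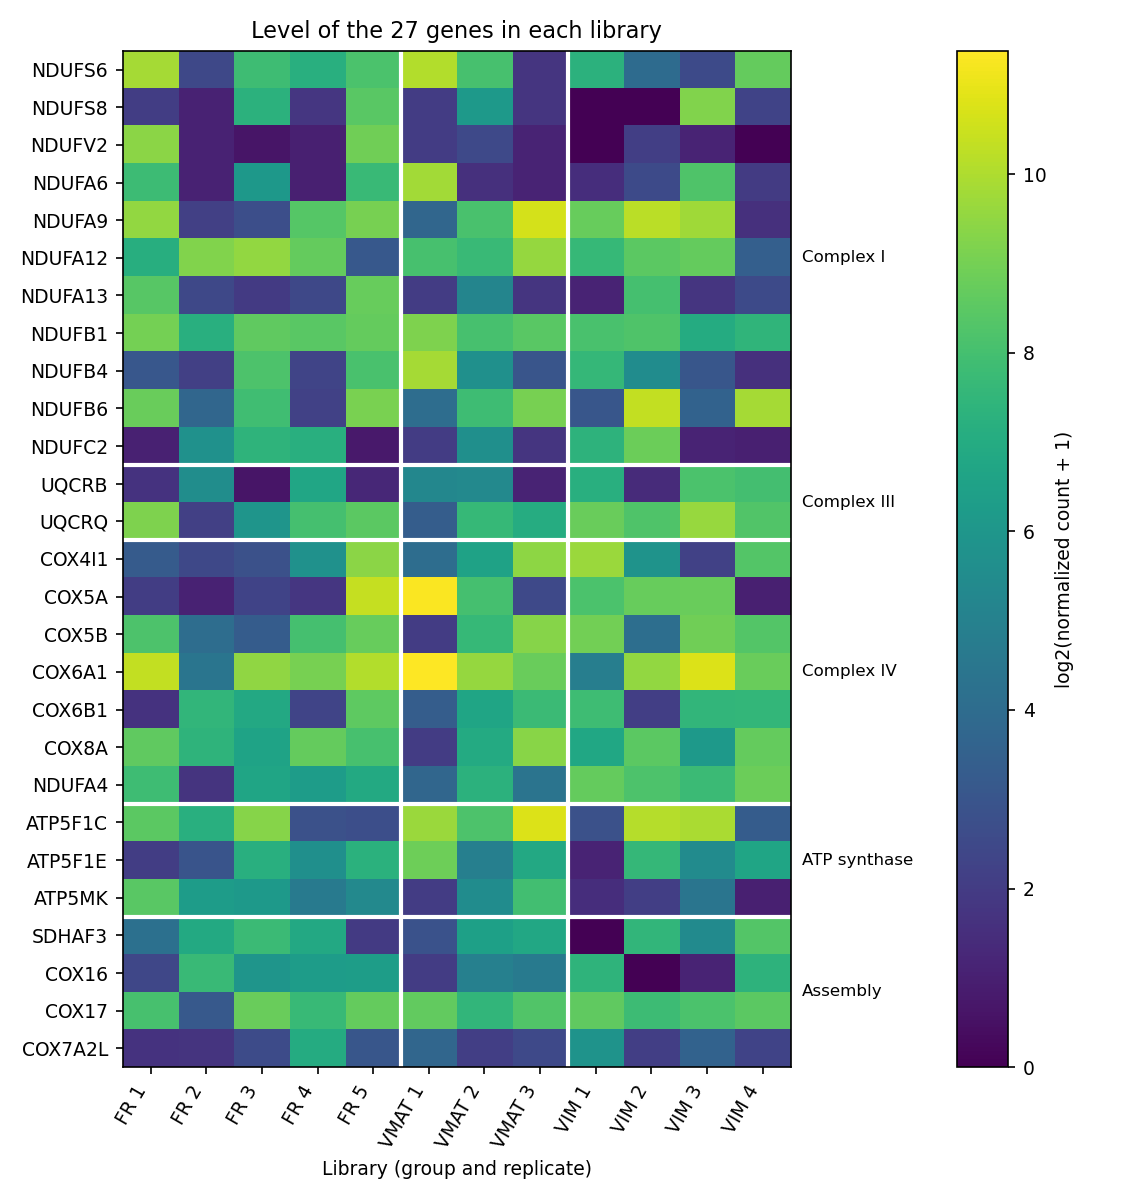
Normalized counts of the 27 oxidative phosphorylation genes (rows, grouped by complex) in the 12 libraries (columns, by group), coloured on a log2 scale of normalized count plus 1. Within a row, high and near-empty libraries occur side by side in each group, and NDUFB1 is the row with over 30 reads in every library.

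Replicates of one group differed by far more than counting error. Within groups, the chi-square of a gene's reads per degree of freedom (near 1 where libraries differ only by the sampling of reads) ran from 1.19 to 3750, with a median of 171. The number of the 27 genes with over 30 reads was 16, 10, 19, 18 and 21 in FR replicates 1 to 5, 10, 25 and 15 in VMAT replicates 1 to 3, and 18, 16, 17 and 15 in VIM replicates 1 to 4. The 3 groups overlapped in this number, with means of 16.8 ± 4.21, 16.7 ± 7.64 and 16.5 ± 1.29 (SD). The low VMAT value came from the shallowest library, and the high one from the deepest.

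FR replicate 2 stood apart in another way. It had 2740837 reads, close to the 2833957 of FR replicate 1, and 25.4% of all listed genes were over 30 reads in it against 26.6% in FR replicate 1. Yet it held 10 of the oxidative phosphorylation genes over 30 reads against 16, and they took 0.0587% of its reads, against 0.156% to 0.345% in the other 11 libraries. Fold changes given in full that turn on this library are given with and without it, and summed levels only with it.

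**Figure D2:**
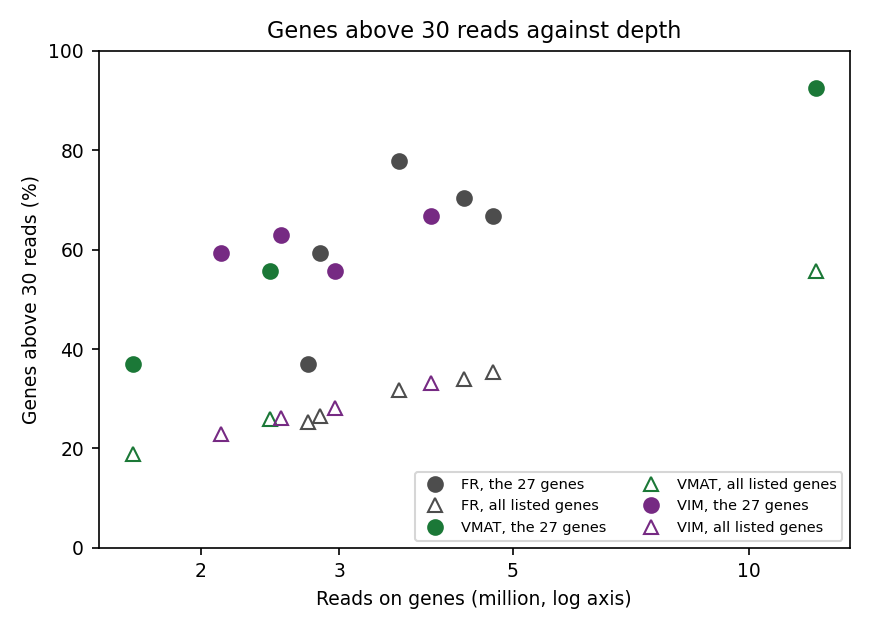
Percent of genes with over 30 reads in each library (vertical axis) against the reads on genes (horizontal axis, log scale), for the 27 oxidative phosphorylation genes (circles) and for all listed genes (triangles), coloured by group. The circles lie above the triangles in each library, from 37.0% to 92.6% against 18.8% to 55.7%, and FR replicate 2 shares the lowest circle with the shallowest library, VMAT replicate 1.

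Summed over the 27 genes, the normalized count was 5433 ± 2888 (SD, n = 5) in FR, 7831 ± 3442 (n = 3) in VMAT and 6483 ± 1598 (n = 4) in VIM. The library sums were 7800, 1840, 4969, 3710 and 8848 in FR, 10790, 4054 and 8650 in VMAT, and 4988, 7816, 7912 and 5216 in VIM. Each VIM sum lay inside the FR range, and the VMAT sums ran from within it to above it. The sums of complex I (2405 ± 1346 in FR, 2838 ± 1224 in VMAT and 2304 ± 1145 in VIM) and of complex IV (1855 ± 1505, 3197 ± 1841 and 2378 ± 526) differed between groups by less than the larger SD of the groups compared. The complex III sum was 283 ± 226 in FR, 139 ± 96.2 in VMAT and 629 ± 317 in VIM, and the lowest VIM library (305) was above the highest VMAT library (239), while FR (50.3 to 580.0) overlapped both. ATP synthase genes summed to 416 ± 346 in FR, 1264 ± 886 in VMAT and 617 ± 652 in VIM, with 1 VIM library at 9.21. The assembly genes were at 475 ± 168, 392 ± 82.7 and 554 ± 234. FR replicate 2 had the lowest FR sum of the 27 genes (1840), of complex I (835), of complex III (50.3) and of complex IV (389). It was not the lowest for ATP synthase or the assembly genes. The FR means include it, so they are lower than without it for the former sums. These sums are descriptions with no test, and a complex with few named genes is carried by 1 or 2 of them.

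**Figure D3:**
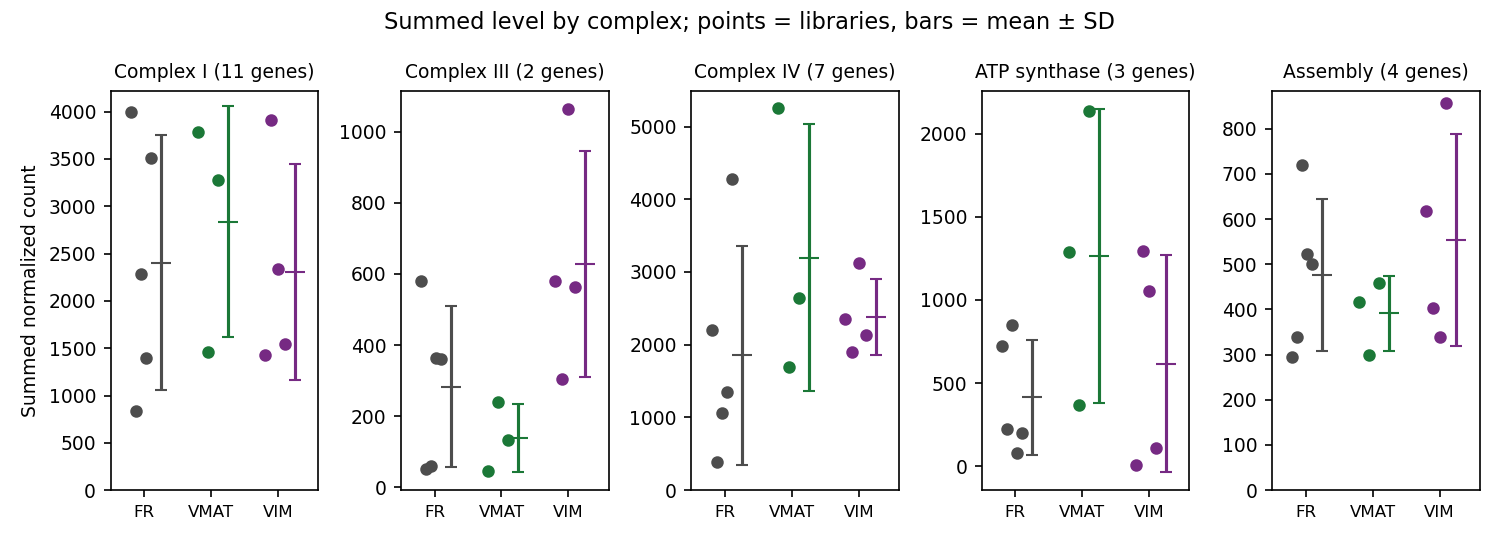
Summed normalized counts of the oxidative phosphorylation genes of each complex, with a point for each library and the mean ± SD of each group (FR n = 5, VMAT n = 3, VIM n = 4). Groups overlap in each panel except for complex III, where the 4 VIM libraries (305 and above) lie over the 3 VMAT libraries (239 and below).

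NDUFV2 (ENSECAG00000009904) of complex I was at high levels in FR pools only among these 12 libraries. It encodes a core subunit of the module that oxidises NADH and carries an iron-sulphur cluster. Its normalized counts were 681, 1.14, 0.56, 1.01 and 475 in FR replicates 1 to 5, 3.11, 4.76 and 1.18 in VMAT, and 0, 3.26, 1.21 and 0 in VIM. FR replicates 1 and 5 had 632 and 664 reads of it, the other FR libraries had 1 to 2, VMAT had 1, 38 and 1, and VIM had 0 to 2. Hence 2 of 5 FR pools held the transcript at a high level, while the other 3 could not be told from the vitrified pools.

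NDUFS8, the other core subunit named and again an iron-sulphur protein, was also high in single pools. Its normalized counts were 3.23, 1.14, 158, 2.52 and 349 in FR, 3.11, 69.6 and 2.36 in VMAT, and 0, 0, 605 and 3.91 in VIM. Each group had a pool with over 500 reads or close to it (487 in FR replicate 5, 556 in VMAT replicate 2 and 502 in VIM replicate 3) and pools at 5 reads or fewer. VMAT replicate 2 was the deepest library, so its normalized count was only 69.6, against 349 in FR replicate 5 and 605 in VIM replicate 3.

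The accessory subunits of complex I surround the core and are needed for its assembly and stability. NDUFB1, in the membrane arm, was the most even, at 514, 145, 387, 351 and 412 in FR, 582, 264 and 355 in VMAT, and 279.9, 302, 125 and 174 in VIM (means 362 ± 135, 400.4 ± 164 and 220.2 ± 84.3). NDUFA12, in the peripheral arm that reaches into the matrix, was over 30 reads in 10 libraries, with 7.87 in FR replicate 5 and 9.78 in VIM replicate 4. NDUFS6 (2.36 to 1086) and NDUFA9 (1.96 to 1602), both of the peripheral arm, were over 30 reads in 8 libraries each, in every group.

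The other accessory genes were reached in fewer pools. NDUFB6 had over 30 reads in 7 libraries, NDUFC2 in 6, NDUFA6 and NDUFB4 in 5 each, and NDUFA13, also known as the cell death regulator GRIM-19, in 4. NDUFA13 was at 339.6 and 419 in FR replicates 1 and 5, the same 2 pools that held NDUFV2, and at 2.8 to 4.58 in the other 3 FR pools. In VMAT it was at 3.11, 35.1 and 2.36, and in VIM at 1.23, 258, 2.41 and 4.89.

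Complex III passes electrons from ubiquinol to cytochrome c, and 2 of its small nuclear-encoded subunits were named. UQCRQ (ENSECAG00000029282) was at 578, 3.43, 59.3, 258 and 360.1 in FR, 9.34, 199 and 131 in VMAT, and 435, 303, 778 and 313 in VIM. The VIM pools were all above the VMAT pools, and within the FR range except for VIM replicate 3. UQCRB (ENSECAG00000009780), which lies near the ubiquinone-binding site, was at 2.16, 46.9, 0.56, 104 and 1.43 in FR, 37.3, 39.5 and 1.18 in VMAT, and 146, 1.63, 287 and 251 in VIM. So 3 of 4 VIM pools were above each FR and VMAT pool for UQCRB, and VIM replicate 2, with 1 read, was among the lowest.

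Complex IV, cytochrome c oxidase, hands the electrons to oxygen. NDUFA4 (ENSECAG00000026987), named as a complex I protein but since known as a subunit of complex IV, was at 226, 2.29, 103, 78.2 and 119.5 in FR, 12.4, 156 and 20.0 in VMAT, and 411, 293, 218 and 456 in VIM. VIM and VMAT did not overlap, and VIM overlapped FR only through VIM replicate 3 (218) and FR replicate 1 (226). The group means were 106 ± 81.0, 63.0 ± 81.1 and 345 ± 109.

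COX5A (ENSECAG00000000160), a subunit on the matrix side, was high in some pools and near-empty in others. It was at 3.23, 1.14, 3.92, 2.52 and 1331 in FR, 2542, 256 and 4.72 in VMAT, and 282, 424, 433 and 0.978 in VIM. Thus 1 of 5 FR pools, 2 of 3 VMAT pools and 3 of 4 VIM pools held it at over 200, and the rest rested on 7 reads or fewer. COX4I1, the largest nuclear-encoded subunit, was likewise over 30 reads in 7 libraries of all 3 groups, from 3.62 to 801.

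COX6A1 (ENSECAG00000012512) and COX8A (ENSECAG00000032338), small subunits that span the membrane, were over 30 reads in 11 libraries each. COX6A1 was at 1275, 20.6, 726, 536 and 1085 in FR, 2664, 766 and 439.8 in VMAT, and 28.2, 740.0, 1736 and 437 in VIM. COX8A was at 387, 167, 94.6, 414 and 268 in FR, 3.11, 123 and 648 in VMAT, and 69.9 to 412 in VIM. The low libraries were FR replicate 2 and VIM replicate 1 for COX6A1 (18 and 46 reads) and VMAT replicate 1 for COX8A (1 read). COX5B, which binds zinc, and COX6B1, which faces the intermembrane space, had over 30 reads in 8 libraries each, with ranges of 3.11 to 629.6 and 2.16 to 375.

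ATP synthase was represented by ATP5F1C (the gamma subunit of the rotating central stalk), ATP5F1E (the epsilon subunit of the same stalk) and ATP5MK, a small membrane subunit linked to the pairing of the enzyme into dimers. ATP5MK (ENSECAG00000028196) was at 355, 76.6, 67.7, 24.7 and 40.1 in FR, 3.11, 45.3 and 244 in VMAT, and 1.84, 3.26, 20.5 and 0.978 in VIM. Each FR pool had 49 reads or more and each VIM pool 17 reads or fewer, so FR and VIM did not overlap, although VIM replicate 3 (20.5) and FR replicate 4 (24.7) lay close together. VMAT spanned both.

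ATP5F1C (ENSECAG00000024684) was at 368, 143, 635, 6.05 and 5.73 in FR, 815, 292 and 1779 in VMAT, and 6.14, 1100.0, 987 and 8.8 in VIM. All 3 VMAT pools held it, against 3 of 5 FR pools and 2 of 4 VIM pools with over 100. ATP5F1E (ENSECAG00000025162) was at 3.23, 6.86, 144, 50.0 and 152 in FR, 469.9, 28.9 and 114 in VMAT, and 1.23, 192, 43.4 and 103 in VIM. Its groups overlapped throughout.

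**Figure D4:**
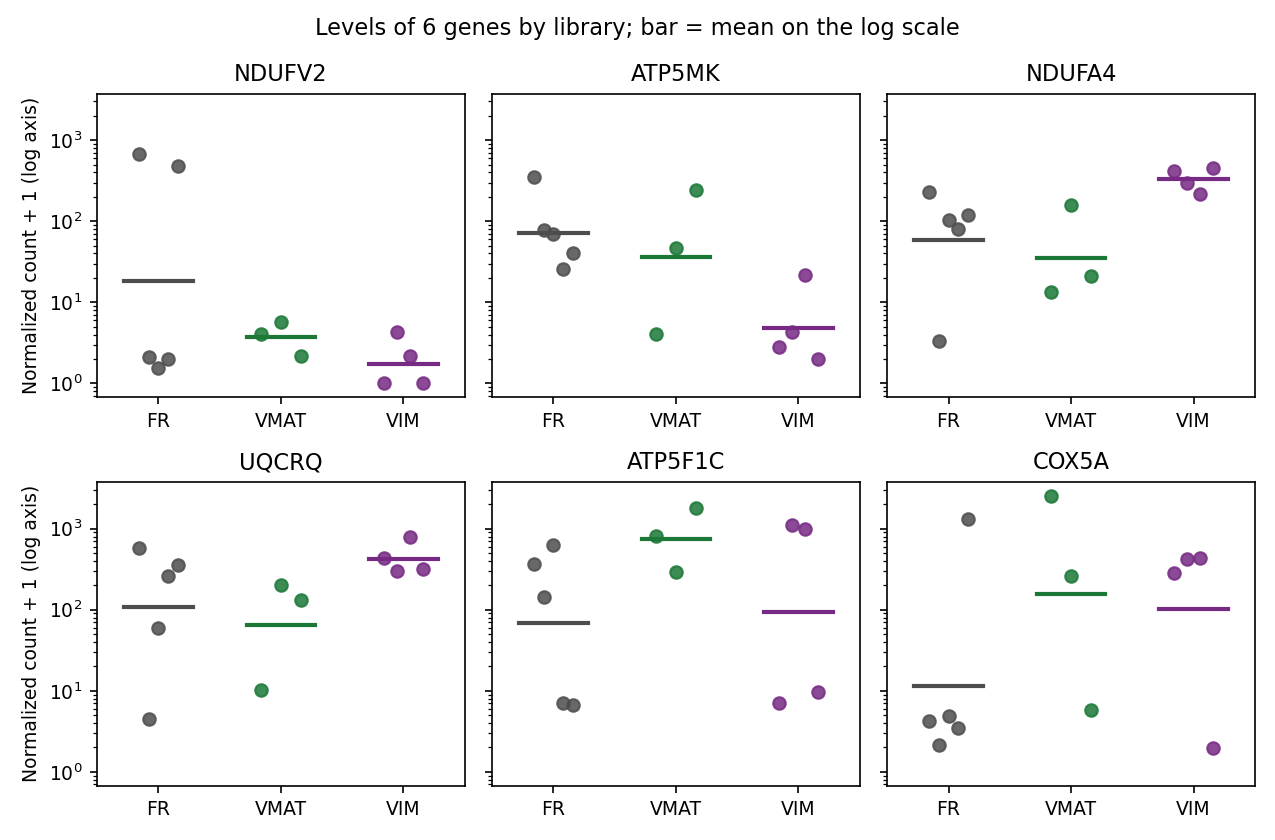
Normalized counts of NDUFV2, ATP5MK, NDUFA4, UQCRQ, ATP5F1C and COX5A in each library (points, log axis of normalized count plus 1), by group, with a bar at the mean on the log scale. NDUFV2 is high in 2 FR pools only, ATP5MK is lower in the 4 VIM pools than in the 5 FR pools, and NDUFA4 and UQCRQ are higher in the 4 VIM pools than in the 3 VMAT pools.

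Of the assembly genes, COX17, the copper chaperone that supplies complex IV, had over 30 reads in 11 libraries and near-equal means of 266 ± 174 in FR, 296 ± 110 in VMAT and 317 ± 79.0 in VIM. Its exception was FR replicate 2, at 8.01. SDHAF3, which matures the iron-sulphur subunit of complex II, was over 30 reads in 8 libraries (0 to 321), and COX16, which helps to build the copper site of complex IV, in 7 (0 to 209). COX7A2L, which joins complexes III and IV into supercomplexes, was over 30 reads in 2 libraries, FR replicate 4 (128) and VIM replicate 1 (55.9).

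VIM vs. FR asked what vitrification before maturation leaves in the mature oocyte. ATP5MK was lower in VIM, UQCRB, UQCRQ and NDUFA4 were higher and NDUFV2 was lower by estimate, and none of these differences passed the test. With limma on log2 of the normalized count plus 1, 0 of the 27 genes were DE (an adjusted p no higher than 0.05 with a log2 fold change of 1 or more in either direction), as were 0 of all 7351 genes tested (0.0%). At an unadjusted p under 0.05 there were 0 of the 27 and 278 of all genes (3.78%). DESeq2 on the recovered reads called 1 of the 27, NDUFV2, and 508 of the 4931 genes to which it gave an adjusted p (10.3%). It gave none to COX5A and COX7A2L, so no call could be made for them. edgeR called 0 of the 27 and 0 of all genes tested (0.0%). Before adjustment, DESeq2 gave a p under 0.05 for 2 of the 27 (NDUFV2 and ATP5MK) and 17.7% of the 5359 genes with a p. With edgeR it was under 0.05 for 1 (NDUFV2) and 16.8% of all genes tested.

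ATP5MK had the smallest p of the 27 in VIM vs. FR. Its log2 fold change was -3.93 (SE 2.09, 95% interval -8.25 to 0.39, limma adjusted p = 0.902). The exact two-sided permutation test gave p = 0.00794, the smallest that 126 splits allow, and 0.949 after adjustment over all genes. It was 1 of the 27 whose groups did not overlap, against 1.59% of all genes tested. Under DESeq2 its adjusted p was 0.0549, and adjusted p ran from 0.0549 to 0.955 over the alternatives that kept every library. Without VIM replicate 3, the VIM pool with the most ATP5MK reads, DESeq2 called ATP5MK, among 569 genes in all. NDUFS8, NDUFV2 and NDUFA6 were called there too. Without VIM replicate 2 DESeq2 called NDUFV2 and NDUFA13, among 578 genes in all.

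NDUFA4 differed by 2.48 (SE 1.49, 95% interval -0.59 to 5.55, limma adjusted p = 0.902, exact permutation p = 0.0238, adjusted 0.954). Without FR replicate 2 the estimate was 1.44. UQCRQ differed by 1.98 (SE 1.41, limma adjusted p = 0.902, exact permutation p = 0.246), or by 0.83 without FR replicate 2, and UQCRB by 3.01 (SE 2.28, limma adjusted p = 0.902, exact permutation p = 0.159), or by 4.60 without VIM replicate 2. These complex III and IV estimates pointed upward, but their intervals all held 0.

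NDUFV2 had a log2 fold change of -3.40 in VIM vs. FR (SE 2.22, 95% interval -7.98 to 1.17, limma adjusted p = 0.902, exact permutation p = 0.286). DESeq2 estimated -7.82 with an adjusted p of 0.00444, and over the alternatives that kept every library the adjusted p ran from 0.00444 to 0.955. Without FR replicate 1 or FR replicate 5, the pools that held the transcript, the DESeq2 estimate was -6.84 or -7.40 and the tool returned no p for the gene, so the difference was not tested there. Of the 27 genes it then called 0 and 1 (COX5A), among 463 and 427 genes in all. Without any other library the adjusted p of NDUFV2 was 0.00292 to 0.02. The limma estimate was -2.10 without FR replicate 1 and -2.23 without FR replicate 5.

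Over the 27 genes in VIM vs. FR, 14 estimates were above 0 (51.9%, against 46.9% of all genes tested) and 13 below, with a median log2 fold change of 0.14 against -0.12 over all genes. Estimates of 1 or more in size were found for 14 of them (51.9%, against 54.6% of all genes). Complex I had 3 estimates above 0 and 8 below (median -0.69), complex III 2 and 0 (2.49), complex IV 5 and 2 (1.102), ATP synthase 2 and 1 (0.20), and the assembly genes 2 and 2 (0.01). The 15 genes named only in the shortened lists had 6 above and 9 below, and the 12 named elsewhere 8 and 4.

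VMAT vs. FR asked what vitrification of the mature oocyte leaves, against the same 5 FR pools. ATP5F1C was the gene with the smallest p, at 962 ± 755 in VMAT and 232 ± 270 in FR, and it did not pass after adjustment. limma called 0 of the 27 genes and 0 of 8305 in all (0.0%). At an unadjusted p under 0.05 there was 1 of the 27, ATP5F1C, against 301 of all genes (3.62%). None of the 27 had groups that did not overlap, against 3.19% of all genes.

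ATP5F1C had a log2 fold change of 3.44 (SE 1.67, 95% interval 0.05 to 6.83) and an adjusted p of 0.95 by limma, with an unadjusted limma p of 0.0468 in this fit across all genes. The exact two-sided permutation test gave p = 0.143, where 56 splits allow 0.0179, and DESeq2 an adjusted p of 0.635, within 0.564 to 0.998 over the alternatives that kept every library. COX5A differed by 3.74 (SE 2.50, limma adjusted p = 0.95), and by 1.73 without VMAT replicate 1, the shallow library with its highest value. COX5A was at 6.12 without VMAT replicate 3. ATP5F1E differed by 1.84 (SE 2.06, limma adjusted p = 0.968), by 0.84 without VMAT replicate 1, by 1.11 without FR replicate 1 and by 2.83 without VMAT replicate 2. COX6A1 differed by 1.23 (SE 1.22, limma adjusted p = 0.957), by 0.17 without FR replicate 2 and by 0.50 without VMAT replicate 1.

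COX8A differed by -1.76 (SE 1.66, limma adjusted p = 0.952) in VMAT vs. FR, and this rested on VMAT replicate 1, where 1 read was counted. Without that library the estimate was 0.28. NDUFV2, described here after its values were seen, differed by -2.32 (SE 2.68, limma adjusted p = 0.97) and by -6.29 under DESeq2 with an adjusted p of 0.0412, in a range of 0.0412 to 0.998 over the alternatives that kept every library. It was the 1 gene of the 27 that DESeq2 called, among 357 of the 5104 genes with an adjusted p there (6.99%). DESeq2 gave COX7A2L no adjusted p, so no call could be made for it. edgeR called 0 of the 27 and 1 gene in all (0.012%). Before adjustment, NDUFV2 was the 1 gene of the 27 with a p under 0.05 in either tool. The share was 15.4% of the 5827 genes with a p with DESeq2 and 13.6% of all genes tested with edgeR. Without FR replicate 1 or 5 DESeq2 gave NDUFV2 an estimate of -5.33 or -5.91 and no p, and without VMAT replicates 1, 2 and 3 its adjusted p was 0.0748, 0.0529 and 0.122. Of the 27 it called 0 without FR replicate 1, VMAT replicate 2 or VMAT replicate 3 (350, 707 and 221 genes in all). It called COX5A without FR replicate 5 (322 genes in all) and NDUFA6 without VMAT replicate 1 (483 genes in all).

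In VMAT vs. FR, 13 of the 27 estimates were above 0 (48.1%, against 50.3% of all genes tested) and 14 below, with a median of -0.14 (0.15 after quantile normalization) against 0.01 over all genes (-0.08). Estimates of 1 or more in size were found for 13 (48.1%, against 55.9%). Complex I had 5 above and 6 below (median -0.47), complex III 1 and 1, complex IV 4 and 3 (0.57), ATP synthase 2 and 1 (1.84) and the assembly genes 1 and 3 (-0.27). The genes named only in the shortened lists had 5 above and 10 below, and those named elsewhere 8 and 4.

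**Figure D5:**
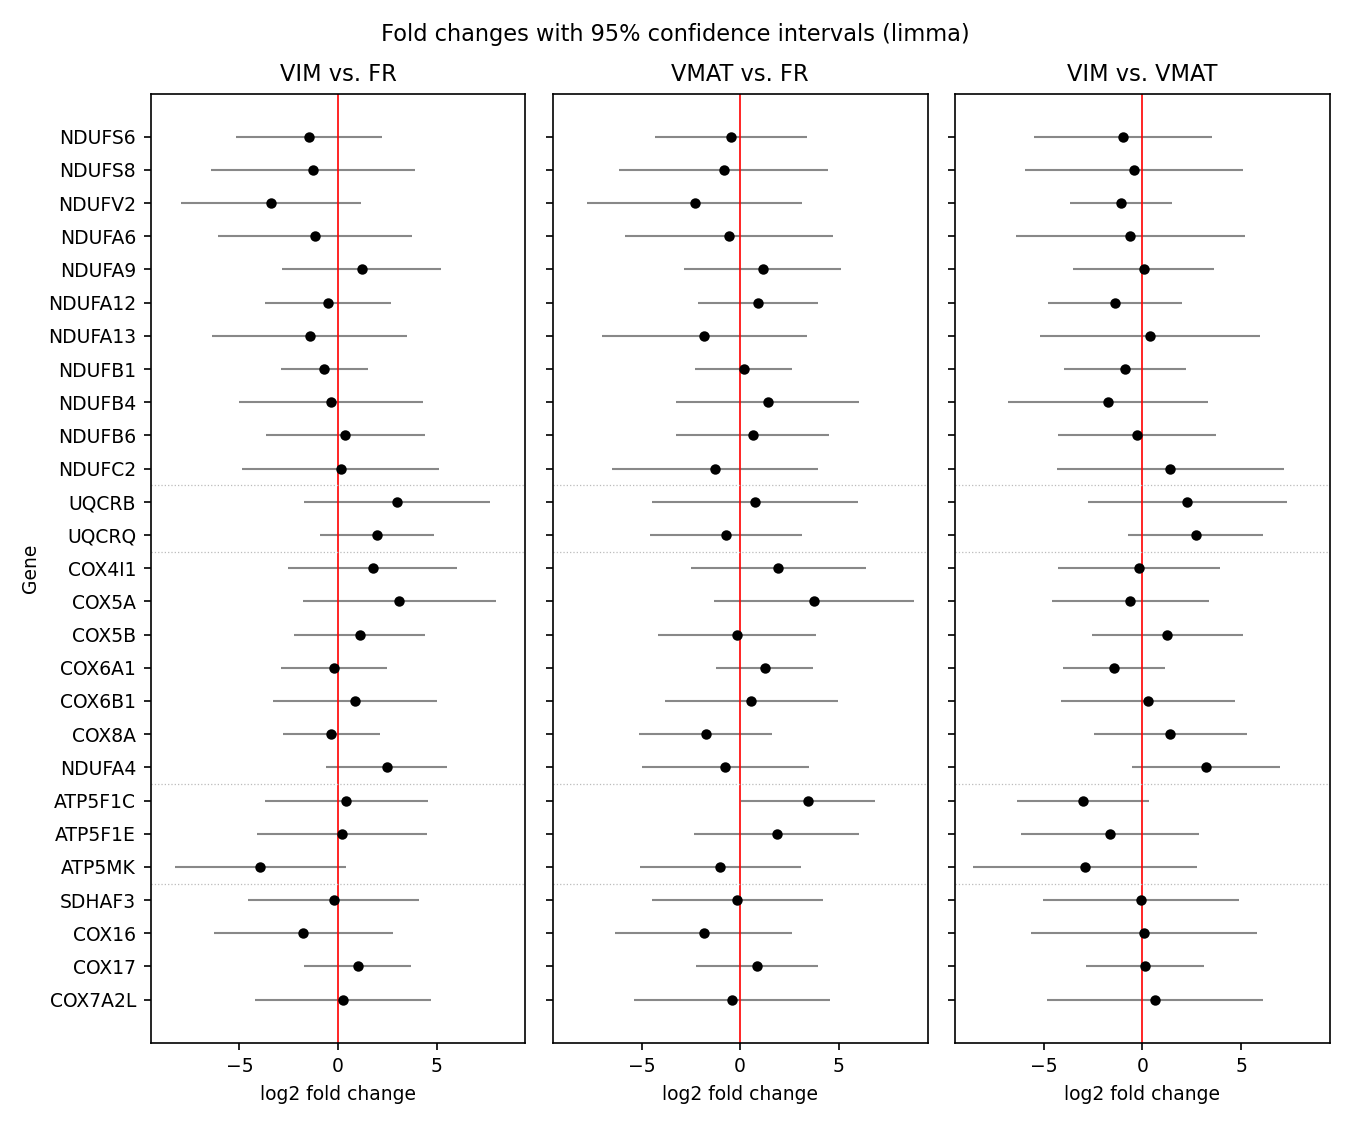
Log2 fold change of each oxidative phosphorylation gene on the scale of log2 normalized count plus 1, with its 95% interval from limma, in the 3 comparisons and grouped by complex. All 27 intervals hold 0 when VIM is compared with FR or with VMAT, and 26 of 27 do in VMAT vs. FR, where that of ATP5F1C starts at 0.05.

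VIM vs. VMAT set the 2 vitrified groups against each other. NDUFA4 and UQCRQ were higher in each VIM pool than in each VMAT pool, 2 of the 27 genes (7.41%) against 4.5% of all genes tested, and neither passed the test. limma called 0 of the 27 and 0 of 7627 genes (0.0%), with 0 of the 27 and 227 of all genes (2.98%) at an unadjusted p under 0.05. DESeq2 called 0 of the 27 and 300 of the 4159 genes with an adjusted p (7.21%), and edgeR 0 of the 27 and 1 gene in all (0.0131%). DESeq2 gave no adjusted p to 4 of the 27 (NDUFS8, NDUFV2, NDUFA6 and NDUFA13), so no call could be made for them. Before adjustment, ATP5MK was the 1 gene of the 27 with a p under 0.05 with DESeq2 (16% of the 5286 genes with a p). There were 0 with edgeR (10.8% of all genes tested).

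NDUFA4 differed by 3.23 (SE 1.91, 95% interval -0.55 to 7.00, limma adjusted p = 0.967) and UQCRQ by 2.71 (SE 1.73, 95% interval -0.71 to 6.13, limma adjusted p = 0.967). For both, the exact two-sided permutation p was 0.0286, the smallest that 35 splits allow, and 0.848 after adjustment over all genes. With VMAT replicate 1 left out, the estimates were 2.53 and 1.39. ATP5F1C differed by -3.01 (SE 1.70, limma adjusted p = 0.967), ATP5MK by -2.92 (SE 2.87, limma adjusted p = 0.973) and COX6A1 by -1.43 (SE 1.32, limma adjusted p = 0.968). Each of the 3 moved with single libraries, ATP5F1C to -1.77 without VIM replicate 1, -1.93 without VIM replicate 4 and -0.87 under DESeq2, and ATP5MK to -1.54 without VMAT replicate 3 and -4.48 without VMAT replicate 1. COX6A1 was at -0.23 without VIM replicate 1, its low VIM pool, at -0.70 without VMAT replicate 1 and at -2.19 without VIM replicate 3. All 3 ATP synthase genes had estimates below 0 in VIM vs. VMAT (-3.01 to -1.65), both complex III genes above 0 (2.28 and 2.71), complex I had 3 above and 8 below (median -0.61), and complex IV 4 and 3 (0.29). Over the 27 genes, 12 were above 0 (44.4%, against 47.8% of all genes) and 15 below, and 13 were 1 or more in size (48.1%, against 57.6%).

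Intervals were wide in every comparison. The half-width of the 95% interval of a log2 fold change ran from 2.21 to 5.18 for VIM against FR, from 2.46 to 5.44 for VMAT against FR and from 2.57 to 5.79 between the vitrified groups. The narrowest in VIM vs. FR was that of NDUFB1 (log2 fold change -0.69, SE 1.07), the gene measured in every library. A difference of 2 on the log2 scale (4-fold), in one direction or the other, therefore lay within the interval of each gene in each comparison, and a gene that did not pass is not shown to be equal.

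From lists of the remaining oxidative phosphorylation machinery and its helpers, 12 further genes could be named: the assembly factors TMEM126B, SCO1, CMC2 and TMEM70, the carriers and exchangers HCCS, ETFA, SLC25A5, VDAC1 and VDAC3, and the mitochondrial DNA genes TFB1M, POLG2 and MTERF3. None of the 12 passed the limma test in any comparison, 0 had an unadjusted p under 0.05, and DESeq2 called 0. In VIM vs. FR the estimates of 4 were above 0 and of 8 below. For VMAT against FR these numbers were 7 and 5, and for VIM against VMAT 5 and 7, with smallest limma adjusted p of 0.902, 0.95 and 0.967. In the same order, 46.9%, 50.3% and 47.8% of all genes tested had estimates above 0.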

How the data were processed

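RNA of pooled mature horse oocytes was sequenced with a QIAseq UPX 3′ kit in 5 FR, 3 VMAT and 4 VIM libraries. The authors isolated RNA from 5 replicates of each group and kept 5 FR, 4 VMAT and 4 VIM after checking RNA amount and integrity. They trimmed reads with Trim Galore 0.6.7, aligned them with STAR 2.7.10b to the EquCab3.0 build, processed unique molecular identifiers with UMI-tools 1.1.2 and counted genes with RSEM 1.3.1. They then removed 1 VMAT sample with low RNA integrity and concentration and few reads. The RNA quality of the kept libraries was not examined here. The deposited signal of a gene is its count over the DESeq2 size factor of the library. Whole reads were recovered for 100.0% of values (tolerance 0.01).

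Each comparison used its own libraries and the genes above 0 in no fewer of them than its smaller group holds. limma 3.58.1 (lmFit, eBayes with trend, R 4.3.3) was fitted over all genes on log2(value + 1), which understates changes of low genes, with Benjamini-Hochberg adjustment, beside an exact two-sided permutation test. The 5 genes of lowest limma p in a comparison are given in full. Alternatives were pseudocounts of 0.5 and 10, quantile normalization, equal column totals, no filter, a mean of 10 or more, all 12 libraries fitted together, eBayes with no trend, a replicate block, DESeq2 1.42.0, edgeR 4.0.16, no fold threshold and leaving out each replicate. DESeq2 with each replicate left out was added after seeing the data. Replicate numbers were not taken as pairs outside the replicate block. That block used only the replicate numbers found in both groups. It left out FR replicate 5 in VIM vs. FR, and FR replicates 4 and 5 in VMAT vs. FR. In VIM vs. VMAT it left out VIM replicate 4. The adjusted p ranges given for alternatives that kept every library are the same without the block. The scripts were tested on simulated counts with replicates far more even than these, so that test does not show how the tools perform here. Figures were drawn with matplotlib 3.10.9 and tables made with pandas 2.3.3 and numpy 2.4.6 in Python 3.11.15.

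The genes, the lists and the mark of 30 reads were chosen with earlier results of these data known. Names came from the study's supplementary gene lists, where copies of the fold-change lists were shortened: 1999 of 2985 entries were read for VIM vs. FR, 1473 of 3227 for VMAT vs. FR and 0 of 2972 for VIM vs. VMAT. The authors' fold changes and p-values in them were not used. Gene positions and sequences were not analysed here. A floor of 3 reads was worth 0.376 to 9.34 normalized counts and covers counting error only.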

Additional observations from a re-analysis of the deposited data

Results flagged for a closer look

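Within VIM and FR, 54 sets of replicate values of a single gene were tested by Dixon's criterion on the log2 scale at the 95% level. In 11 of them a library lay far from the others. Normally distributed values would give about 1 in 20 (2.7). The share over all genes was not computed, so the 11 are not shown to be particular to these genes. VMAT, with 3 libraries, was not tested. High single libraries were COX5A in FR replicate 5 (1330.0, the other FR libraries at 1.14 to 3.92), COX7A2L in FR replicate 4 (128, others 2.16 to 7.16) and NDUFA6 in VIM replicate 3 (302, others 1.84 to 4.89). FR replicate 2, the library with the smallest share of its reads on oxidative phosphorylation genes, was the low one for COX6A1 (20.6, others 536 to 1275), NDUFA4 (2.29, others 78.2 to 226) and COX17 (8.01, others 201 to 440.0).

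VIM replicate 2 was low for UQCRB (1.63, others 146 to 287), COX5B (16.3, others 325 to 494) and COX6B1 (3.26, others 178 to 231). VIM replicate 4 was low for NDUFA9 (1.96, others 425 to 1159) and COX5A (0.978, others 282 to 433). Why these libraries lack single transcripts that their replicates hold was not tested.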

How the results depend on the processing

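The number of the 27 genes called was 0 under limma in each comparison with every alternative setting, with the replicate block included (0) and with any replicate left out (0 to 0). DESeq2 on the recovered reads called 1 in VIM vs. FR (508 genes in all) and 1 for VMAT against FR (357 in all), where limma called 0. With a replicate left out, DESeq2 called 0 to 4 of the 27 (427 to 578 genes in all) and 0 to 1 (221 to 707 in all). NDUFV2 then had log2 fold changes of -9.53 to -6.84 and of -6.89 to -5.33. COX8A in VMAT vs. FR reversed to 0.28 without VMAT replicate 1 (range -3.37 to 0.28 with a replicate left out), and the other estimates given in full kept their sign. The median of all genes moved by over 0.1 in VIM vs. VMAT alone, by -0.11 with equal column totals and by 0.13 with quantile normalization. With a floor of 10 reads, or of a normalized count of 10, 2 genes were above it in every library in place of 6. Samples of the same number did not deviate together (correlations -0.03 to 0.01 over 10 pairs). With replicates as uneven as these, that cannot show whether the numbers are pairs. No 2 replicates agreed within sampling noise (19 pairs, chi-square per degree of freedom of 277 or more).

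Depth, 3 to 5 pools a group and transcripts missing from single pools limit these results. How reads shared with processed pseudogenes were assigned was not examined, and genes that the name lists leave out were not analysed here.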
